A study of Homo sapiens with 8 samples.

Results

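TAZ binding in the first 24 h of TAZ-4SA induction was described from a pair of ChIP-seq peak lists in MCF10A, an immortal line of human breast epithelium that is not transformed. Every peak of both lists was taken, 4900 of the 55334 peaks in the series, and each peak was put into a class by an overlap of at least 1 bp with the other list. The list from cells without doxycycline (Dox) held 2431 peaks, of which 488 were kept at 24 h and 1943 were not called again. The list from cells after 24 h of Dox at 0.05 µg/ml held 2469 peaks, of which 489 were kept from the list without Dox and 1980 were gained. Both conditions used the same tet-inducible cells, which were transduced with TAZ-4SA, an activated TAZ in which serines targeted by the Hippo kinases are replaced, and which also carry their own TAZ. The sources used here do not say whether the cells are 1 clone. Each condition had 1 library from a TAZ antibody and 1 from IgG. Signal from the cells' own protein and from TAZ-4SA cannot be told apart. Each list comes from 1 TAZ library with no replicate, so every difference below is one between 2 single libraries, and no test of it was possible. Peak lists hold no expression values, and neither the induction nor the epithelial identity of the cells could be checked from them.

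TAZ, encoded by WWTR1, is a transcriptional co-activator that the Hippo kinases keep out of the nucleus. It has no DNA-binding domain and reaches the genome through partners, above all the TEAD factors, often beside AP-1 factors at distant enhancers. Its best known targets in epithelial cells are matricellular genes such as CCN1 and CCN2 and genes that feed back on the Hippo pathway.

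Sequences at 9 summits are printed to show the motifs that set the classes apart. The stretches below are read from the hg38 plus strand at the summit and are cut where an annotated exon begins. In the gained and kept peaks capitals mark TEAD (ACATTCC or GCATTCC) and AP-1 (TGACTCA or TGAGTCA) matches on either strand, and in the peaks that were not called again they mark the ETS match CCGGAAG on either strand. They are strong peaks from genes named below, and all 9 hold a marked motif, so they do not show how common the motifs are. Of all gained and kept peaks at 24 h 51.2% and 56.5% held a TEAD match. Of all peaks that were not called again 20.1% held an ETS match. The strongest of these, DPY19L4, held none, and the strongest gained peak outside promoters, SMYD3, held no TEAD match. The first 3 are gained, the promoter of CCN2 and introns of NFKBIZ and ROBO2, the next 3 are kept, and the last 3 were not called again.
CCN2, chr6:131951431-131951551: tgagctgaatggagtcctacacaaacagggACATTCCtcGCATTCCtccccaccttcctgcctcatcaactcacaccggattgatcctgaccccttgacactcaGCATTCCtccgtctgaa
NFKBIZ intron, chr3:101842679-101842799: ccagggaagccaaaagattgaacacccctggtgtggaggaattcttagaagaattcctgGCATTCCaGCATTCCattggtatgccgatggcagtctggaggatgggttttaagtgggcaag
ROBO2 intron, chr3:76497800-76497920: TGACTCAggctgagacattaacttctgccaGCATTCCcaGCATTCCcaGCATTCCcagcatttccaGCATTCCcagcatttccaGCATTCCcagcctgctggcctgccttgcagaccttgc
LAMA5 intron, chr20:62361938-62362058: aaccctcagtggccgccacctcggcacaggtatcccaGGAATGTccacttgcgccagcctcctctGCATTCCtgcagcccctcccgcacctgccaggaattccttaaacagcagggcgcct
Upstream of EGFR, chr7:54967487-54967607: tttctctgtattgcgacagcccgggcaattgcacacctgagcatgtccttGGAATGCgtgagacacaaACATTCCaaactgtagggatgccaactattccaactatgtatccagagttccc
Nearest to HOXC13, chr12:53845114-53845234: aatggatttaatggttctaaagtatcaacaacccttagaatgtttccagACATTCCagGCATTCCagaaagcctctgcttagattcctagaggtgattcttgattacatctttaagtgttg
DMAP1, chr1:44213354-44213454: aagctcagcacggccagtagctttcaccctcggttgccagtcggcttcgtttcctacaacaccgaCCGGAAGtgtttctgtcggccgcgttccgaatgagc
EXOSC3, chr9:37800710-37800796: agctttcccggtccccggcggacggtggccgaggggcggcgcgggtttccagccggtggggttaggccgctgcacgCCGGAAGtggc
Nearest to ZNF778, chr16:89240983-89241103: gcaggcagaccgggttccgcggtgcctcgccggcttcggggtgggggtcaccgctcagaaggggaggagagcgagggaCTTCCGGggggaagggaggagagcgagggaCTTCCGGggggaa
The CCN2 stretch holds 3 TEAD matches and that of ROBO2 holds 5 beside 1 AP-1 match. The 3 stretches that were not called again hold no TEAD match and 1, 1 and 2 ETS matches.

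The first question was how much of the TAZ binding seen without Dox was still called after 24 h. Lists of almost equal length shared few sites. Of the peaks without Dox 20.1% were called again (95% exact binomial interval 18.5 to 21.7), and of the peaks at 24 h 80.2% were gained (78.6 to 81.8). All intervals of shares in the text are of this kind, and they cover counting error only, not the spread between cultures. The overlap rule left few borderline cases. Matched peaks overlapped by a median of 403 bp, and 1 of 489 pairs overlapped by under 100 bp, a pair nearest to ASAP1 with 34 bp in common. Gained peaks lay as close as 2 bp to a peak without Dox, and 3 of them lay within 100 bp of one.

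Total reads are not in the lists, so the depth of the libraries is unknown. The ChIP fragments over each summit (its pileup) and the local background were solved from the deposited values. The median pileup was 20 without Dox (95% Poisson interval of such a count 12.2 to 30.9) and 24 at 24 h (15.4 to 35.7). The lowest background of a list was 1.49 and 1.42 fragments, but this floor depends on the fragment length as well as on the reads, and the narrowest peaks of the lists, 385 and 297 bp, differed too. The weakest peaks had 9 fragments in both lists. Chromosomes 1 to 22, X and Y held 1940 of the peaks that were not called again, and 233 of these had 50 or more. The effect of induction and any difference in depth or enrichment between the libraries cannot be told apart.

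The classes lay in different parts of the genome. Most peaks that were not called again sat at a promoter, as at EXOSC3, a subunit gene of the RNA exosome, and most gained peaks sat in introns or intergenic sequence, as at NFKBIZ and ROBO2. A promoter is taken here as 3 kb around any annotated transcription start site (TSS). Promoters held 77.3% (75.3 to 79.1) of the peaks that were not called again, 47.6% (43.1 to 52.2) of the kept peaks at 24 h and 24.4% (22.5 to 26.3) of the gained peaks, against 17.7% of regularly spaced genome windows. Introns held 12.01%, 27.7% and 44.6%, and intergenic sequence 9.90%, 22.9% and 28.8%. The genome windows had 44.1% and 36.0%, so gained peaks were nearer to the makeup of the genome than either other class. The distance to a TSS showed the same order, with a median of 134.5 bp for peaks that were not called again, 3642 bp for kept peaks and 10866 bp for gained peaks. Of the first class 44.7% lay within 100 bp of a TSS, of the gained peaks 3.81%. Chromosome 19, which is rich in genes, held 2.08 peaks per Mb that were not called again and 0.648 gained peaks per Mb, whereas chromosome 4, which is poor in genes, held 0.357 and 0.620.

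**Figure D1:**
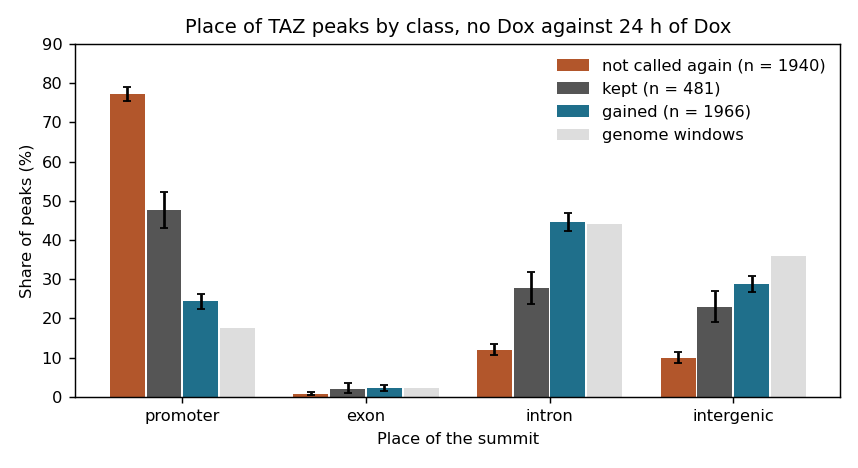
Share of summits (%) by annotated place (promoter, exon, intron or intergenic) for peaks that were not called again (no Dox list), kept and gained peaks (24 h list) and genome windows, with exact 95% intervals as error bars. Promoters held 77.3% of the peaks that were not called again, 47.6% of the kept and 24.4% of the gained peaks.

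Base composition followed the same order. The median GC content within 100 bp of the summit was 64.2% (quartiles 55.2 and 71.6) in peaks that were not called again, 52.7% (46.8 and 60.2) in kept peaks at 24 h and 42.8% (38.3 and 48.3) in gained peaks. Genome windows had a median of 39.8% and starts of protein-coding genes one of 63.2%. Sequence rich in CpG, taken as 250 bp to either side of the summit with at least 55% GC and an observed to expected CpG ratio of at least 0.65, held 58.8% of the peaks that were not called again, 17.0% of the kept peaks and 2.44% of the gained peaks. The difference held within promoters, where these shares were 73.4%, 34.9% and 9.39%. Gained promoter peaks also lay farther from the TSS, with a median of 1007 bp against 70 bp for those that were not called again. GC content thus moved with the classes, and so with the libraries, and its part in the calls was not tested.

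**Figure D2:**
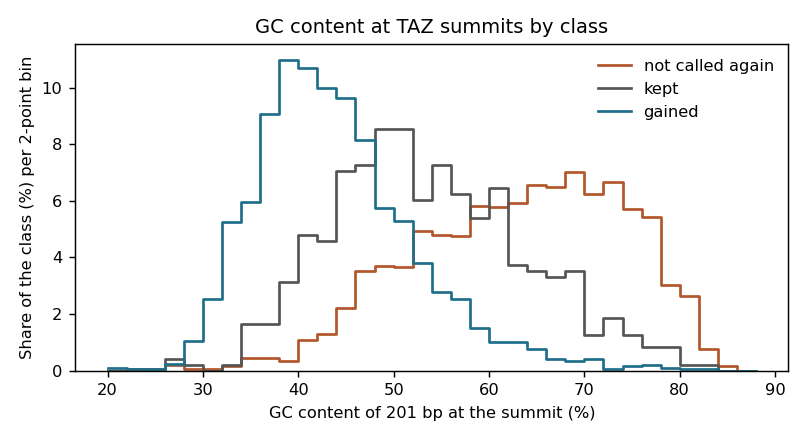
Distribution of GC content (%, within 100 bp of the summit) in bins of 2 points for the 3 classes, as the share of each class (%). Gained peaks are centred at 42.8%, kept peaks at 52.7% and peaks that were not called again at 64.2% (medians).

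Motifs at the summits separated the classes next. A TEAD match lay within 100 bp of the summit in 51.2% of gained peaks (48.9 to 53.4) and in 56.5% of kept peaks at 24 h (52.0 to 61.0), but in 8.61% of the peaks that were not called again (7.40 to 9.95). Equal windows 1000 bp to the side had shares of 6.33%, 6.24% and 5.10%, and 5.59% of genome windows and 3.496% of protein-coding starts held a match. In gained peaks the place made no visible difference, with 50.9% (46.4 to 55.5) at promoters and 51.2% (48.6 to 53.8) in introns and intergenic sequence. The matches sat close to the summit, and 28.6% of gained and 35.6% of kept peaks had one within 25 bp, against 3.04% of the peaks that were not called again. At least 2 matches lay in 12.8% of gained peaks, in 15.0% of kept peaks and in 0.567% of the third class. Kept peaks with 2 or more had a median fold enrichment of 11.3, the other kept peaks 8.16.

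Like TEAD matches, AP-1 and RUNX matches were more common in gained and kept peaks than in those that were not called again. AP-1 lay in 17.5% of gained peaks (15.8 to 19.3), in 16.6% of kept peaks (13.4 to 20.3) and in 5.15% of the peaks that were not called again (4.21 to 6.23), with 3.04% to 3.53% to the side and 2.95% in genome windows. TEAD and AP-1 together lay in 7.48% of gained peaks, AP-1 without TEAD in 10.0%, and 38.8% held neither. RUNX (TGTGGTT), bound by factors of epithelial and blood cell identity, lay in 11.2% of gained peaks (9.88 to 12.7), in 8.73% of kept peaks and in 2.22% of the peaks that were not called again, with 3.45% to 3.64% to the side. STAT (TTCCNGGAA), whose letters can overlap the end of a TEAD match, lay in 3.05% of gained peaks, in 0.305% to their side and in 0.470% of genome windows.

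ETS and SP/KLF matches, both common at promoters of housekeeping genes, ran the other way. ETS lay in 20.1% (18.3 to 21.9) of the peaks that were not called again, in 5.20% (3.39 to 7.58) of kept peaks and in 1.12% (0.703 to 1.69) of gained peaks. At promoters alone the shares were 25.02%, 10.04% and 1.67%, and 10.2% of protein-coding starts held an ETS match. SP/KLF (GGGCGGG) lay in 29.1%, 10.8% and 2.70%, but protein-coding starts already held it in 33.1%. NRF1 (GCGCATGC) lay in 2.01%, 1.25% and 0.407%, against 2.99% of protein-coding starts. Matches of YY1 (AANATGGC), NFY (CCAATCA or CCAATGA), CREB (TGACGTCA), the E-box (CACGTG) and CTCF lay in at most 5.26% of any class, and YY1, NFY and the E-box in 5.86%, 8.48% and 5.87% of protein-coding starts. All motifs were searched on both strands. A match is a stretch of letters and not a measured site.

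**Figure D3:**
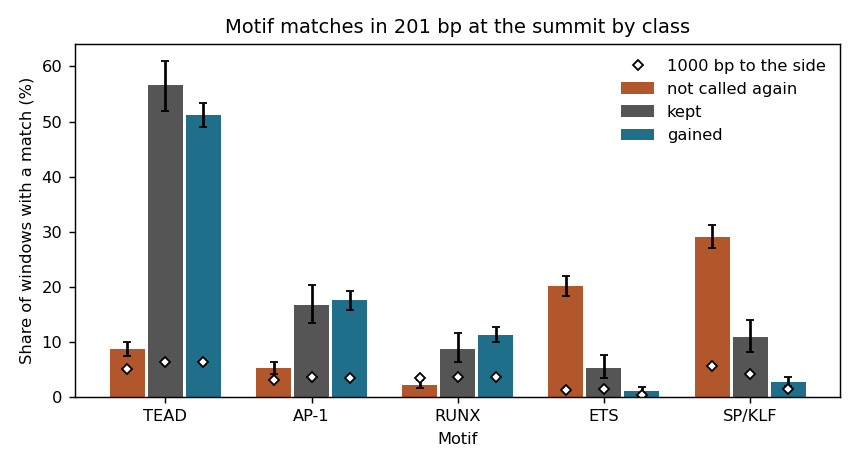
Share of peaks with a match within 100 bp of the summit (%) for 5 motifs in the 3 classes, with exact 95% intervals as error bars and open diamonds for windows 1000 bp to the side. TEAD stands at 51.2% in gained and 56.5% in kept peaks against 8.61% in peaks that were not called again, and ETS at 1.12%, 5.20% and 20.1%.

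The TEAD match also divided the peaks without Dox by what became of them. With a match 58.0% (53.0 to 62.9) were called again at 24 h, without one 12.3% (10.9 to 13.8). At promoters these shares were 48.2% and 8.86%, and in introns and intergenic sequence 67.2% and 22.96%. Outside CpG-rich sequence they were 63.6% and 21.6%, and within it 30.3% and 5.36%. With TEAD and AP-1 together 66.7% of 60 peaks were kept (53.3 to 78.3). An ETS match went with a low share, 6.71% (4.51 to 9.56) against 22.6% without it. The peaks without Dox were split by fold enrichment into 5 groups of equal size. The kept share without a TEAD match went from 7.96% in the weakest to 17.1% in the strongest, and with a match from 36.8% to 74.6%. The weakest peaks with a match were thus called again more often than the strongest without one, with intervals of 24.4 to 50.7 and 13.6 to 21.0. By place the kept share went from 6.81% to 18.4% at promoters and from 19.4% to 68.3% in introns and intergenic sequence.

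**Figure D4:**
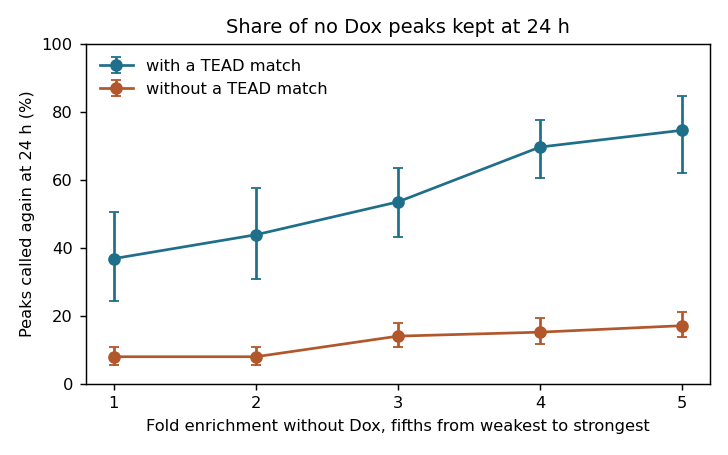
Share of peaks without Dox that were called again at 24 h (%), for 5 equally large groups ordered by fold enrichment, with (blue) and without (brown) a TEAD match and with exact 95% intervals. The share with a match runs from 36.8% to 74.6%, that without one from 7.96% to 17.1%.

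Kept peaks were compared for their strength in the lists. Fold enrichment is the authors' ratio of the signal at a summit to its local background. It was higher at 24 h in 352 of 480 kept peaks (73.3%, 69.1 to 77.2), and the median ratio of the value at 24 h to that without Dox was 1.36 (quartiles 0.975 and 1.85). Fold enrichment was also higher over the whole list at 24 h, with a median of 7.48 against 5.57 over all peaks without Dox. At the kept peaks the medians were 6.38 without Dox and 8.60 at 24 h, and the median pileups 23 and 31. Summits moved little, by a median of 41 bp, and 78.5% stayed within 100 bp. Promoters and distal sites (introns and intergenic sequence) differed, with a higher value at 24 h in 62.0% (55.4 to 68.3) of 229 and in 83.1% (77.7 to 87.6) of 242. Among promoters the TEAD match went with the direction. With a match at the 24 h summit the median ratio was 1.48 and 81.7% of 115 were higher, and without one it was 0.906 and 42.1% of 114 were higher. In 24 kept promoters with an ETS match at the summit without Dox the median ratio was 0.458, from a median pileup of 64 to one of 23.5. Values at most 0.5 times as high occurred in 33 kept peaks, and all 33 lay in promoters without a TEAD match. These promoters started higher. Without Dox the median fold enrichment was 8.09 in kept promoters without a match and 6.22 in those with one, with median pileups of 34.5 and 23. A kept peak must also be called at 24 h, so low ratios were open mainly to peaks that were strong without Dox. At distal sites the median ratio was 1.55 and 84.97% of 153 were higher with a match, and 1.30 and 79.8% of 89 without one.

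**Figure D5:**
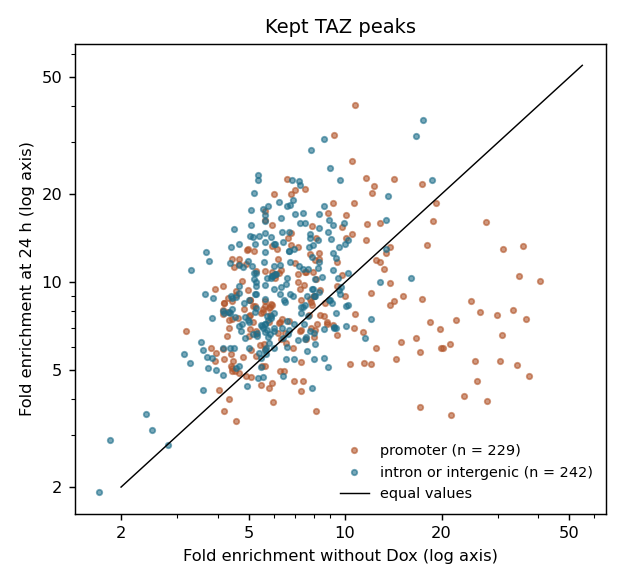
Fold enrichment without Dox (x, log axis) against that of the overlapping peak at 24 h (y, log axis), 1 point per kept peak, for promoters (brown) and introns or intergenic sequence (blue). Of the 242 blue points 83.1% lie above the line of equal values, while 33 brown points lie at a ratio of 0.5 or less, to the lower right.

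Genes are named here by the nearest TSS, which says nothing of the gene a site acts on. The 12 kept peaks described next were picked for the highest fold enrichment at 24 h, so their higher values there are a description. Of these 12 peaks 9 held a TEAD match at the 24 h summit. The highest lay 6.25 kb from LMNB2, a lamin gene, within the promoter of LINC01775 (chromosome 19, 2462879 to 2463498), with 10.8 without Dox and 40.4 at 24 h. An intronic peak of LAMA5, a laminin chain of basement membranes, had 17.5 and 35.9 with 62 and 135 fragments. GNA11, a G protein alpha subunit, had 9.23 and 31.9 at 678 bp from its TSS, with 22 and 104 fragments. The mitochondrial cristae gene CHCHD6 had an intronic site with 16.7 and 31.4. A site 51470 bp from the TSS of EGFR, the receptor of epidermal growth factor, had 8.57 and 30.9 with 36 and 92 fragments. An intronic site of APBB2, an adaptor protein gene, had 7.84 and 28.4, although its nearest protein-coding start is that of ENSG00000289761. The promoter of TXNRD2, a mitochondrial thioredoxin reductase, had 10.5 and 25.99. TNNC1, a troponin of slow muscle, had 6.58 and 22.6, and SCNN1A, a subunit of the epithelial sodium channel, had 14.2 and 22.4. At SCNN1A the pileup was 84 without Dox and 74 at 24 h, and the local background 4.98 and 2.34 fragments. A site within GNG7, nearest to the TSS of GADD45B at 64.5 kb, had 11.6 and 22.7. The remaining sites of the 12 highest, assigned to LPIN1 and HOXC13, lay 201.4 and 93.7 kb from those genes.

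At the ends of the range the ratios were far apart. The highest ratio, 4.35, was that of the site nearest to HOXC13, with 5.35 and 23.3. Sites 688 kb from USP25 and 9.32 kb from TNS3, which encodes a focal adhesion protein, followed with 4.19 and 3.87, and then LMNB2 with 3.75 and the APBB2 site with 3.62, and 4 of these 5 held a TEAD match. The lowest ratios all lay at promoters without a TEAD match. CCDC97 had 37.6 without Dox and 4.79 at 24 h, with 126 and 15 fragments. MAIP1, a mitochondrial protease-interacting protein gene, had 27.8 and 3.94, ZSCAN22 had 34.3 and 5.23, and COA6, a copper protein of cytochrome oxidase assembly, had 21.4 and 3.53. NDUFB3, a subunit of respiratory complex I, had 23.5 and 4.08 with 76 and 14 fragments. Also lower at 24 h were the complex I gene NDUFS7 with 40.5 and 10.1 and the ribosomal protein gene RPS7 with 36.6 and 7.48.

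The 12 strongest peaks that were not called again at promoters had 31.9 to 47.0. DPY19L4, a C-mannosyltransferase-like gene, led with 47.0 and 162 fragments (95% Poisson interval 138 to 189), 28 bp from its TSS. EXOSC3 had 41.5 with 188 fragments (162 to 217), ZBTB45 had 37.8 with 137, and DMAP1, which belongs to a histone acetyltransferase complex, had 36.1 with 124. UBE3B, a ubiquitin ligase, had 35.1, DUS1L, a dihydrouridine synthase, 34.9, ITGB3BP, a centromere protein, 33.2, and METTL15, a methyltransferase of mitochondrial ribosomal RNA, 32.7. The helicase-related gene RAD54L2 had 32.3, FAM98B 32.1, the importin gene IPO4 32.0 and the nucleolar gene NOP16 31.9. All 12 had at least 79 fragments at the summit, none held a TEAD match, and their summits lay within 106 bp of a TSS of the named gene. Of the 12, 1 was called at 48 h, ZBTB45, and 11 were called at 72 h.

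Outside promoters the peaks that were not called again were weaker. An intergenic site 16.4 kb from ZNF778 with 3 ETS matches had 19.3 and 87 fragments, and an intronic site of RGS9, a regulator of G protein signals, had 12.6. Sites nearest to CHD6, TH, EPG5, THEM6, PGBD2 and PLB1 lay between 10.3 and 12.4. TH encodes the first enzyme of catecholamine synthesis, and the site lay 9272 bp from its TSS. Over all 425 distal peaks of this class the median fold enrichment was 4.83 and the median pileup 15, and 15.5% (12.2 to 19.3) held a TEAD match, more than at promoters (6.67%, 5.46 to 8.05).

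The strongest gained peaks at promoters of protein-coding genes included those of CCN2, WTIP and TEAD4. C18orf63, a gene of unclear function, had 51.9 with 144 fragments (121 to 170) at 1130 bp from its TSS and 3 TEAD matches. PIK3C2A, a class II PI3-kinase, had 26.1, and WTIP, an Ajuba-type LIM protein that restrains the Hippo kinases, had 25.2 with 72 fragments and 2 TEAD matches 96 bp from its TSS. ATXN10 had 21.4, ARPC5, a subunit of the actin-nucleating Arp2/3 complex, 18.7, CCN2 16.8 with 41 fragments, NXPH2 16.5 and TEAD4, itself a TEAD factor, 16.1 with 45 fragments 4 bp from its TSS. TOGARAM2 had 16.0, CCDC85C 15.7, RNF43, a ubiquitin ligase that restrains Wnt receptors, 15.7 and ANKS6, a ciliary protein, 15.6. Of these 12 sites 10 held a TEAD match, 11 were called at 48 h (all but TEAD4) and 12 at 72 h.

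Outside promoters the gained peaks reached similar values. SMYD3, a lysine methyltransferase, had 46.7 with 181 fragments (156 to 209) in an intron and no TEAD match at the summit. A site 6941 bp from SNAPC1, which serves transcription of small nuclear RNAs, had 38.5, and the intronic site of NFKBIZ, an IkB protein of the nucleus, had 31.8 with 76 fragments and 2 TEAD matches. The intronic site of ROBO2, an axon guidance receptor, had 30.6 with 73 fragments. Sites nearest to FAM107A, MARCHF1, OGFRL1, ZNF462, CHCHD6, KLF5 and SBF2 lay between 21.8 and 27.4. Like that of SMYD3, the summits nearest to SNAPC1, MARCHF1, OGFRL1 and SBF2 held no TEAD match. KLF5 encodes a transcription factor of basal epithelium, and its site lay 198905 bp from the TSS. The gained site assigned to SLC25A17 with 34.4 lies in an exon of ST13, and 6 gained peaks in all lay in ST13 or its pseudogenes, with 9.17 to 36.1, where reads of near-identical copies can be misplaced. Over all gained peaks the median fold enrichment was 7.37 (quartiles 5.98 and 9.46) and the median pileup 22.

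Most genes near gained peaks had a single one. Within 100 kb, 1506 gained peaks were nearest to 1251 protein-coding genes, and 85.2% of these genes had 1 gained peak. The most, 6 each, lay near NSUN6 and CWH43. All 12 of those windows held 20 or more copies of the 5-letter word CATTC on either strand, which is part of the TEAD match, and the sites near CWH43 had a local background of 8.36 to 23.7 fragments. In all 30 gained peaks had at least 10 such words, and without them 50.7% of gained peaks held a TEAD match. Next came 11 genes with 4 gained peaks each, of which the 8 with the highest fold enrichment are named. EXT1, an enzyme of heparan sulfate synthesis, reached 15.2, LIMCH1, an activator of non-muscle myosin, 15.0, and FRMPD4, a scaffold of synapses, 14.8. CEMIP2, a cell surface hyaluronidase, reached 12.5, CAV2, a caveolin of membrane invaginations, 12.5, and SHROOM3, a regulator of apical constriction, 12.5. NDST1, a sulfotransferase of heparan sulfate, and PALM2AKAP2, which anchors protein kinase A, reached 11.0 and 10.0. All 4 gained peaks of each of these 8 genes were called again at 48 h.

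The gene neighbourhoods of the classes were then compared for 33 fixed gene lists, chosen with earlier results of these data known. Of 19885 protein-coding genes, 8.40% had within 3 kb of a TSS a peak that was not called again, 1.06% had a kept peak and 1.51% a gained peak, and 6.29% were the nearest gene to a gained peak within 100 kb. The lists of mesenchymal, NF-kB and TNF, amino acid synthesis, complement, collagen and RNA exosome genes are not described further. Their intervals for kept peaks, gained peaks and nearest genes include these shares. Peaks not called again lay at 3 of 11 RNA exosome genes (27.3%, 6.02 to 61.0) and at none of 44 collagens (0% to 8.04%). Targets of YAP and TAZ had kept promoter peaks and nearby gained peaks more often than all protein-coding genes. Of the 22 genes of the YAP/TAZ target signature 2 had a promoter peak that was not called again, 8 (36.4%, 17.2 to 59.3) a kept one and 2 a gained one, and 15 (68.2%, 45.1 to 86.1) were nearest to a gained peak within 100 kb. The interval of the 2 gained promoter peaks, 1.12% to 29.2%, includes the 1.51% of all genes. The kept sites of the Hippo kinase gene LATS2 (10.1 without Dox and 17.0 at 24 h), of AMOTL2, an angiomotin that binds YAP (8.09 and 14.2), and of the receptor kinase gene AXL (7.11 and 10.0) lay close to the TSS. The phosphatase gene PTPN14 had 12.9 and 15.9 with 85 and 100 fragments. ARHGEF17 had 11.6 and 14.0, the matrix gene CCDC80 5.64 and 10.9, and ASAP1 3.95 and 5.74. The kept site of ASAP1 lay 1126 bp from a TSS without Dox. Another ASAP1 peak, 4 bp from a TSS with 3.55 and 16 fragments, was not called again. All 8 kept sites were higher at 24 h. Over all kept peaks 73.3% of 480 were higher, and among kept promoters with a TEAD match at the 24 h summit 81.7% of 115. CCN1, like CCN2 a matricellular protein, had a kept site near its TSS with 5.22 and 8.30 and a gained one 2960 bp away with 9.09. ANKRD1, a muscle ankyrin repeat protein, had a promoter peak with 5.22 and 12 fragments that was not called again, and a gained site 10162 bp away with 8.75. Several targets had gained distal sites only, as CRIM1 with 14.8 at 3105 bp and F3, the coagulation tissue factor, with 8.09 at 81116 bp. FOXF2 also had a gained distal site only, with 5.52. TGFB2, a TGF-beta ligand, MYOF, a membrane repair protein, the ectonucleotidase gene NT5E and RBMS3 had both gained distal sites (10.6, 6.99, 4.49 and 4.37) and kept ones (11.7, 19.1, 7.86 and 15.7 at 24 h). NUAK2, a kinase, and DOCK5 had kept distal sites only, with 22.1 and 8.99 at 24 h.

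Genes of the Hippo pathway had counts of a similar kind. Of 26 Hippo kinases and regulators 2 had a promoter peak that was not called again, 5 (19.2%, 6.55 to 39.4) a kept one and 4 (15.4%, 4.36 to 34.9) a gained one. In this list 14 (53.8%, 33.4 to 73.4) were the nearest gene to a gained peak within 100 kb. AMOTL2, LATS2 and PTPN14 belong to both lists. AJUBA, a LIM protein, had a kept site with 12.1 and 20.2 and a gained one with 10.3, and WWC2, a relative of KIBRA, had a kept site with 6.30 and 11.0. WTIP, WWC1, which encodes KIBRA (8.23 at 1615 bp), and FRMD6 (7.81 at 57 bp) had gained promoter sites. STK3, a Hippo kinase, and RASSF1 had peaks of 5.87 and 4.93 that were not called again, with 15 and 17 fragments. Of the 4 TEAD genes TEAD1 had a kept site at its TSS, with 6.76 and 20.1 and with 33 and 71 fragments, and TEAD4 the gained one. TEAD3 had a gained site 11392 bp away with 5.44. No peak of either list within 100 kb had WWTR1 as its nearest gene. VGLL4, a competitor of TAZ for TEAD, had a promoter peak with 8.01 that was not called again and a gained site 3979 bp away with 9.35.

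Partners of TAZ and signals around it were read next. Of all promoter peaks without Dox 13.3% were kept. Of 14 AP-1 genes JUND (9.15), ATF3 (4.42) and FOSL2 (3.43) had promoter peaks that were not called again, MAFK had a kept one with 6.92 and 4.61, and none had a gained promoter peak. For these genes the interval for peaks not called again, 4.66% to 50.8%, includes the 8.40% of all genes. That for gained promoter peaks, 0% to 23.2%, includes the 1.51% of all genes. Of 19 genes of TGF-beta and SMAD signalling 7 (36.8%, 16.3 to 61.6) were the nearest gene to a gained peak within 100 kb, beside 6.29% of all genes. The highest lay at SMAD3, a mediator of TGF-beta signals, with 15.0 at 19256 bp. RUNX1 had a promoter peak of 4.16 that was not called again and was the nearest gene to 3 gained sites within 100 kb. For the 4 RUNX genes the interval for peaks not called again, 0.631% to 80.6%, includes 8.40%. Of 13 EGFR family genes and ligands 1, ERBB2 (7.34), had a promoter peak that was not called again. The interval of this share, 0.195% to 36.0%, includes 8.40%. In this list 4 genes (30.8%, 9.09 to 61.4) were the nearest to a gained peak within 100 kb, beside 6.29% of all genes. Among them was TGFA, an EGFR ligand, with 12.3 at 29019 bp.

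Genes of adhesion, the cytoskeleton and the cell cycle appeared among the gained peaks and among those that were not called again. For the integrin, actin and cell cycle genes the intervals of the share with a peak that was not called again (2.09% to 48.4%, 2.55% to 31.2% and 6.06% to 36.9%) include the 8.40% of all genes. For gained promoter peaks they were 2.09% to 48.4% at the integrins and 4.54% to 36.1% at the actin genes, beside 1.51% of all genes. Of 12 integrin genes ITGB4 (6.96) and ITGB1 (4.37) had promoter peaks that were not called again, and ITGB5 (8.28) and ITGA3 (5.93) had gained ones. Of 25 actin cytoskeleton genes DIAPH1 (12.2), ACTG1 (6.37) and ACTN1 (6.25) were in the first class and ACTN4 (9.79), DIAPH3 (8.48), TPM1 (7.08) and MYH9 (5.75) in the second, and MYH9 and CNN2 also had kept peaks. Among the epithelial junction genes CGN (10.7) and CDH1 (6.21), which encodes E-cadherin, had gained promoter peaks, and CTNNA1 (4.08) and DSC3 (4.19) peaks that were not called again. Of 12 basal and 12 luminal mammary markers none had a gained promoter peak. Among the basal ones KRT5 (4.18 and 5.47) had a kept promoter peak and LAMB3 (4.07) one that was not called again. Among the luminal ones MUC1 (4.56 and 3.37) had a kept one. For each such count of 1 the interval was 0.211% to 38.5%. It includes the 1.06% of all genes with a kept peak and the 8.40% with one not called again. For each of these lists the interval of gained promoter peaks, 0% to 26.5%, includes the 1.51% of all genes. Of 14 liver, 14 neuronal, 14 blood and 14 muscle genes 1, 0, 0 and 1 had a gained promoter peak. Their intervals, 0.181% to 33.9% for 1 gene and 0% to 23.2% for none, also include 1.51%. Of 28 cell cycle genes 5 (17.9%) had promoter peaks that were not called again, the highest CDKN1A (9.35), MCM7 (7.42), CDK6 (5.98) and E2F3 (4.75), and CCND1 had a gained one with 6.51.

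Of the lists of housekeeping genes, the core spliceosome, the tRNA synthetases and both kinds of ribosomal proteins had promoter peaks that were not called again at shares whose intervals lay above the 8.40% of all genes. Of 33 genes of the core spliceosome 9 (27.3%, 13.3 to 45.5) had such a promoter peak and none a kept or gained one. The highest were SF3A3 (22.5), SNRNP200 (13.5), SF3B6 (12.9) and SNRPD3 (12.9). Of 77 genes of the mitochondrial ribosome 18 (23.4%, 14.5 to 34.4) had one, led by MRPL13 (29.8), MRPL44 (23.8) and MRPS31 (23.2), 2 had a kept peak and none a gained one. Of 34 tRNA synthetase genes 8 (23.5%, 10.7 to 41.2) had one, led by TARS2 (20.4), and none had a kept or gained one. Of 87 cytosolic ribosomal protein genes 14 (16.1%, 9.09 to 25.5) had one, led by RPL29 (20.4), 1 had a kept peak and 3 a gained one, RPL27 with 10.8, RPS26 and RPLP2. Of 39 proteasome genes 6 (15.4%, 5.86 to 30.5) had one and 1, PSMC3, a gained peak. Of 32 translation initiation factor genes 4 (12.5%, 3.51 to 28.99) had one. Both intervals include 8.40%. Of 86 respiratory chain subunit genes 6 (6.98%, 2.60 to 14.6) had one, near the share of all genes, and NDUFS7 and NDUFB3 had kept peaks. Zinc finger ZNF genes, 508 in number, were near the share of all genes, with 55 (10.8%, 8.26 to 13.9) that had a peak not called again and 8 a gained one. Olfactory receptor genes, which are silent in most tissues, had none of either kind at 415 promoters. Among all genes 1.06% had a kept and 1.51% a gained promoter peak. The intervals of both kinds were 0% to 10.6% at the core spliceosome and 0% to 10.3% at the tRNA synthetases. For gained peaks they were 0% to 4.68% at the mitochondrial and 0.717% to 9.75% at the cytosolic ribosomal proteins. For kept peaks the same lists had 0.316% to 9.07% and 0.0291% to 6.24%. All these intervals include the share of all genes.

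Later lists were read for what became of each class. Of the gained peaks 93.3% (92.1 to 94.3) overlapped a peak at 48 h and 96.3% (95.3 to 97.1) one at 72 h, and 41 of 1980 overlapped neither. Of the kept peaks of the list without Dox 88.5% and 98.6% did, and 1 of 488 overlapped neither. Of the peaks that were not called again at 24 h 17.8% (16.1 to 19.6) overlapped a peak at 48 h and 87.0% (85.5 to 88.5) one at 72 h. At promoters of this class the shares were 11.9% and 93.9%, and at its distal sites 36.9% and 63.3%. Kept promoter peaks without Dox were called at 48 h in 77.3% of cases and kept distal ones in 99.6%. The list at 72 h is longer than both lists compared here, so a higher share there is no measure of stronger binding.

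Width was the least comparable feature. The median interval was 563 bp in peaks that were not called again, 616 bp in kept peaks without Dox, 454 bp in kept peaks at 24 h and 396 bp in gained peaks. The narrowest interval was 385 bp in the list without Dox and 297 bp in that of 24 h, and MACS2 by default takes this minimum from the fragment length it estimates for a library, so widths compare only within a list. Within the list without Dox kept peaks were wider than the others, and within the list at 24 h kept peaks were wider than gained ones. Outside chromosomes 1 to 22, X and Y lay 11 and 22 peaks, which stayed in the counts of the classes and out of all that concerns place, sequence and strength.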

How the data were processed

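TAZ ChIP-seq in MCF10A cells was read from the peak lists of the conditions without Dox and with 24 h of Dox, with 1 TAZ library each, and the lists at 48 and 72 h were used for later overlap only. The authors mapped reads to hg38 with BWA and used MACS2 for the peaks, with a false discovery rate cut-off of 0.01. Their tool versions, and whether IgG served as the control, were not given in the sources used here. The deposited lists give fold enrichment as a ratio, with a pseudocount on both sides, and −log10 p-values and q-values, all from the authors' MACS2 run. Total reads are not in the lists. Whole fragments and background at each summit were solved from the ratio and the p-value, which returned 100% of the peaks within 0.003 on the −log10 scale.

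Summits were annotated with GENCODE 44 and sequence was read from hg38, whose sequence names and ends held every peak. Motifs of 12 kinds were searched on both strands within 100 bp of the summit and in equal windows 1000 bp to each side. Genome windows were spaced by 20000 bp. Shares have exact binomial intervals (scipy 1.17.1), pileups Poisson intervals. The steps were tested on simulated data. No test between conditions was made. Members and gene lists were chosen with earlier results of these data known, and list members came from general knowledge. Any gene of the YAP/TAZ signature, cofactor, TEAD, AP-1 and Hippo lists could be named, beside the 12 highest kept peaks, the 12 highest promoter and 8 highest other peaks not called again, the 12 highest gained promoter and 12 highest other gained peaks, the 10 genes with most gained peaks, the 5 highest and 5 lowest ratios, and, in each class, up to 4 members of other lists with the highest fold enrichment. A result on 1 gene is not reported here.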

Additional observations from a re-analysis of the deposited data

How the results depend on the processing

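The order of the classes was the same under every alternative tried for promoter share, GC content, TEAD, AP-1 and ETS share. Of 60 alternative values 25 stayed near the value in the text and 35 moved. Shares, medians and the ratio were judged by the interval of that value. The counts of signature genes have no interval and were judged by the size of the count. A reversal was defined only for the ratio of fold enrichment at kept peaks, which stayed above 1 in its alternatives. With an overlap of at least 50% of each interval 15.0% of peaks without Dox were called again and 85.2% of those at 24 h were gained, and with a −log10 q of 5 or more in both lists 24.0% and 82.1%. For peaks not called again, kept and gained, in that order, a promoter of 1 kb gave promoter shares of 71.5%, 32.2% and 12.1%, and TSS of protein-coding genes alone 71.0%, 36.4% and 14.8%. A window of 50 bp to either side gave TEAD shares of 4.95%, 47.2% and 41.1%, AP-1 shares of 3.30%, 9.77% and 10.1% and ETS shares of 12.8%, 2.70% and 0.560%. A window of 200 bp to either side gave 14.2%, 62.6% and 56.6% for TEAD, 8.66%, 23.9% and 24.1% for AP-1 and 26.6%, 7.69% and 2.14% for ETS. A −log10 q of 5 or more gave the peaks not called again a promoter share of 83.7%, an ETS share of 27.4% and a median width of 614 bp. Over the whole interval the median GC was 62.1% in peaks not called again and 51.4% in kept peaks. Signature genes with a gained peak numbered 1 within 1 kb of a TSS and 15 as nearest gene within 100 kb. Leaving out windows rich in CATTC and peaks off chromosomes 1 to 22, X and Y were alternatives chosen after seeing the data, and both stayed within the interval. No paired analysis was possible because each condition had 1 TAZ library, and no replicate could be left out.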

Other observations

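Some protein-coding promoters had peaks of more than 1 class. Of the 1671 genes with a promoter peak that was not called again and the 300 with a gained one, 31 were in both sets, 1.86% and 10.3% of them, near the 1.51% and 8.40% of all protein-coding genes with such a peak. Among the 31, chosen after the values were seen, were IGF1R, a growth factor receptor, IRF1, a transcription factor of the interferon response, and RIPK1 and CFLAR, both regulators of cell death. A kept and a gained peak were found together at 7 genes, of the 211 with a kept promoter peak and the 300 with a gained one. Among all protein-coding genes 1.06% had a kept and 1.51% a gained promoter peak. Whether the 7 genes exceed what these shares give was not tested. Of the genes with a promoter peak that was not called again 7.002% were also the nearest gene to a gained peak within 100 kb, and of the 211 genes with a kept promoter peak 15.2%, against 6.29% of all protein-coding genes.

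Gained peaks lay a median of 347 kb from the nearest peak without Dox, and 4.98% of them lay within 10 kb of one. Of the gained peaks 8.49% had another gained peak within 10 kb, and of the peaks that were not called again 5.82% had one of their own class.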
